A study of Homo sapiens with 6 samples.

Results

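Hyaluronan is a long sugar chain of the pericellular matrix, and 9 genes that make it, cut it or bind it were followed in Het1A, an established epithelial line of the human oesophagus that was immortalised with SV40 large T antigen. The members are the synthases HAS1, HAS2 and HAS3, the hyaluronidases HYAL1, HYAL2, HYAL3 and CEMIP, the receptor CD44 and the precursor enzyme UGDH. All 9 were found by symbol among the 58735 genes of the deposited count table. The family was picked from these data because HAS2 was higher in the bile acid libraries. The contrast between bile acid and control libraries therefore chose it, and the members' differences in that contrast are given as descriptions, without a test.

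The study compared 3 bile acid with 3 control libraries, each from Het1A cells grown in keratinocyte medium with pituitary extract and EGF and held in 1% serum from 48 h before treatment onwards. Bile acid cells were bathed on 5 days for 10 min in medium of pH 4.0 holding 100 µM of mixed bile acids (glycocholic, taurocholic, glycodeoxycholic, glycochenodeoxycholic and deoxycholic acid). Control cells received 0.1% DMSO, and since the labels do not say that their medium was acidified, acid and bile acids cannot be told apart. RNA was taken 24 h after the last bath. The labels number the libraries as biological replicates 1 to 3 without saying how the cultures were separated, and they give no batch or date. The p-values below therefore measure the spread between these libraries, which may in part be technical.

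Hyaluronan synthases sit in the plasma membrane, join UDP-glucuronic acid and UDP-N-acetylglucosamine in turn, and push the growing chain out of the cell. Hyaluronidases and the surface protein CEMIP cut the chain into fragments, which are taken up and digested in lysosomes. CD44 holds the chain at the surface and links it to the actin cytoskeleton. In stratified epithelia such as the oesophagus and the skin the chain fills the space between basal and spinous keratinocytes, and growth factors of the EGF family are known to raise its synthesis there.

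RefSeq promoter windows on GRCh38.p14 were matched for 8 of the 9 members, all but HAS2. Shown are the bases before the start sites of the remaining synthases, which share an enzyme activity. Each stretch lies outside the exons of GENCODE release 29, for which 3 bases next to the start were left out for HAS1. The first, at chr19:51723995-51724241, is on the minus strand and the second, at chr16:69107290-69107539, on the plus strand. The HAS3 stretch lies inside the annotated gene, which begins at 69105564, so it precedes an internal start and not the first. Of the 5 GENCODE transcripts of HAS3, 1 holds the bases after that start. Capitals mark matches, on either strand, to 5 motifs given after the sequences, which were picked from 15 searched once their matches had been seen.
HAS1: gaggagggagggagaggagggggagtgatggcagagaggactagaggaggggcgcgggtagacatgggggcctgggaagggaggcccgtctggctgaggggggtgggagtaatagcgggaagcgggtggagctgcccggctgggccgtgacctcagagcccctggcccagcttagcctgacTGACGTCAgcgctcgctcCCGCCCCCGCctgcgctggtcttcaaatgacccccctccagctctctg
HAS3: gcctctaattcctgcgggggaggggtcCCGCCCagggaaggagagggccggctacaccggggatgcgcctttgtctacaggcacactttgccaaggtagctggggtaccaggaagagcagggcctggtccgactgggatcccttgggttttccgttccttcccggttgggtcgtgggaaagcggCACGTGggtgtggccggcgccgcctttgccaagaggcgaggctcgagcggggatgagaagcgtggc

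The cyclic AMP response element, TGACGTCA, stood 69 bp before the HAS1 start and in 1.65% of 35116 promoter windows of 250 bp. The EGR motif, GCGGGGGCG, began 50 bp before that start and overlapped a GC box, GGGCGG, that began 51 bp before it. Of all windows, 4.72% held the EGR motif and 42.6% the GC box. Before its internal start HAS3 held a GC box at 223 bp and an E-box, CACGTG, at 66 bp, which 6.34% of windows hold. Of the 8 members, 7 had a GC box and 0 had the AP-1 letters TGANTCA, found in 6.57% of windows. The 10 other motifs had 0 matches in the HAS1 and HAS3 windows. These matches describe letters in the windows alone.

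Total counts were 21006677 to 26218597 in control and 27008714 to 28497721 in bile acid libraries. Control library 2 stood apart: 19101 genes were detected in it and 24174 to 25337 in each other library, and its log2 CPM correlated with theirs across genes at 0.890 to 0.928, against up to 0.986 among the rest. CPM are counts relative to library size, scaled between libraries by the TMM method. The members' fold changes that lean on control 2 are given with and without it. Of 10 squamous markers, 8 were detected but KRT4 and KRT13 were at 0, and the basal markers KRT5, KRT14, TP63 and DSG3 were too low to be tested. EPCAM, SFN and CDH1 alone exceeded 1 FPKM on average. EPCAM and CDH1 also mark other epithelia, so the squamous label has little support here from its defining genes. FPKM, as deposited, also divide the count by exonic length. Among 7 columnar markers CDX2, MUC2, TFF3, KRT20 and VIL1 were too low to be tested, so the columnar label rests on the simple-epithelial keratins KRT8 and KRT18 alone. The summed level, nearly all of it these keratins, was 106, 255 and 93.8 FPKM in controls 1 to 3 and 140 to 152 FPKM in bile acid libraries. Control 2 alone lay above the bile acid libraries, which all lay above the other controls. The log2 fold change of KRT8 was 0.22, or 0.57 without control 2, and that of KRT18 was −0.21, or 0.63, and DESeq2 without control 2 called both. Of 10 fibroblast and mesenchymal markers 9 were detected, with COL3A1 at 0 and COL1A2, DCN, LUM and POSTN too low to be tested. Their summed level was 36.9 to 61.4 FPKM in control and 55.7 to 69.1 FPKM in bile acid libraries, most of it VIM, COL1A1 and THY1. The log2 fold change of VIM was 0.44, or 0.67 without control 2. That of COL1A1 was 0.80, or 0.44, and that of THY1 was −0.49, or 0.01. DESeq2 without control 2 called 1 marker of this list. Of 6 leukocyte markers PTPRC, CD3E, LYZ and MS4A1 were at 0, with a summed level of 4.23 to 5.86 FPKM in control and 5.61 to 7.26 FPKM in bile acid libraries, most of it CD14. Here too the bile acid libraries all exceeded controls 1 and 3, at 4.58 and 4.23 FPKM. The summed level of the squamous list, most of it EPCAM and SFN, was 38.8, 75.1 and 34.5 FPKM in controls 1 to 3. It was 41.3 to 52.8 FPKM in bile acid libraries, again with control 2 highest and the other controls lowest. SFN, a keratinocyte 14-3-3 protein, had a log2 fold change of −0.03, or 0.77 without control 2, and DESeq2 without control 2 called 1 of the 4 tested squamous markers. Of 4 endothelial markers CDH5 was at 0, and the summed level was 0.0436 to 0.272 and 0.116 to 0.249 FPKM. Whether these shifts have a part in the members' values was not tested.

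HAS2 was nearly silent in control libraries and present in every bile acid library. HAS2, the synthase that most cells use for long chains and the one needed for heart development (ENSG00000170961, chromosome 8, 121612116 to 121641390, minus strand, GRCh38), had 7, 0 and 1 counts in control libraries 1 to 3. It had 87, 26 and 26 counts in bile acid libraries 1 to 3. The groups did not overlap, and bile acid library 1 stood above the other 2 bile acid libraries, which were alike. In CPM the values were 0.252, 0 and 0.0426 in controls and 3.10, 0.950 and 0.904 in bile acid libraries, or 0.0981 ± 0.135 against 1.65 ± 1.26 (mean ± SD, n = 3). The ratio of these means was 16.85, and 11.2 against controls 1 and 3 alone. Pooled over each group, 8 control counts gave 0.116 CPM (95% exact Poisson interval 0.0499 to 0.228) and 139 bile acid counts 1.65 CPM (1.39 to 1.95), intervals that cover counting error only. In edgeR the log2 fold change was 3.87 (SE 1.02), and it was 3.40 without control 2, 3.07 without bile acid library 1 and 5.85 without control 1. In bulk RNA, more cells with HAS2 transcripts and more transcripts per cell cannot be told apart.

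HAS2 was 1 of the 19 genes, all higher, called at an adjusted p under 0.05 in the authors' deposited table, 0.0857% of its 22164 genes, with 0% called lower. That call belongs to the contrast that chose the family, so it is no separate evidence. The call depended on the tool and filter. The quasi-likelihood test of edgeR called 0 of 17743 genes tested, 0% in either direction and 0 members, with 588 genes at an unadjusted p under 0.05, and limma-voom also called 0. DESeq2 on the count table called 19 genes higher (0.107%) and 0 lower (0%), 0 of them members. DESeq2 on the reads behind the authors' normalized counts, without a filter on low counts, called 19 genes, HAS2 among them, and with the filter of edgeR it called 20, HAS2 not among them. Without control 2, DESeq2 on the count table called 143 genes higher (0.783%) and 15 lower (0.0821%), and HAS2 and CD44 were among the higher ones.

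**Figure D1:**
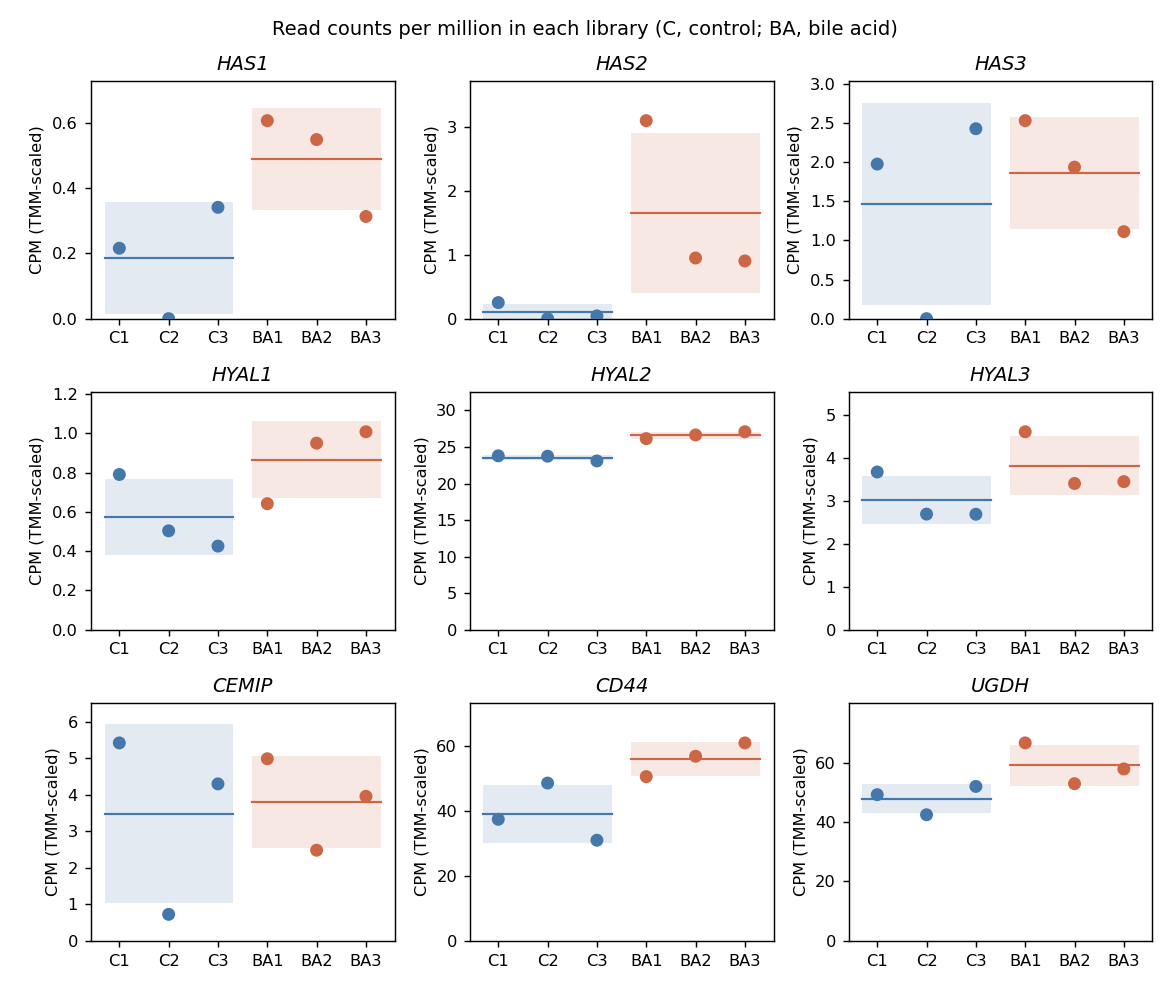
TMM-scaled CPM of the 9 members (vertical axes, each from 0) in control libraries C1 to C3 and bile acid libraries BA1 to BA3, with the group mean as a line and 1 SD as a shaded band. HAS2, HYAL2, CD44 and UGDH show no overlap between groups, and C2 is at 0 for HAS1, HAS2 and HAS3.

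HAS1 and HAS3 did not repeat this pattern. HAS1, a synthase of low activity (ENSG00000105509, chromosome 19, 51713112 to 51723994, minus strand), had 6, 0 and 8 counts in controls and 17, 15 and 9 in bile acid libraries. Bile acid libraries 1 and 2 lay above every control and bile acid library 3, at 0.313 CPM, lay below control 3 at 0.341 CPM. HAS1 was the 1 member under the filter on low counts, and in the fit of all genes with a count its log2 fold change was 1.36 (SE 1.05). With control 2 left out HAS1 passed the filter, and in that filtered fit its log2 fold change was 0.82 (SE 0.65). These values therefore differ in the filter as well as in control 2.

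HAS3, which is known for shorter chains and for its role in keratinocytes (ENSG00000103044, chromosome 16, 69105564 to 69118719, plus strand), had 55, 0 and 57 counts in controls and 71, 53 and 32 in bile acid libraries. In CPM that was 1.98, 0 and 2.43 against 2.53, 1.94 and 1.11. The groups overlapped, and control 2 alone was at 0, where 3 counts, the limit that a count of 0 allows, would be 0.168 CPM. The log2 fold change of 0.32 (SE 1.03) turned to −0.23 (SE 0.39) without control 2, with bile acid libraries 2 and 3 then below both controls.

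Set side by side per gene length, HAS2 held a larger and HAS3 a smaller share of the synthases in each bile acid library than in controls 1 and 3. HAS2 came first in bile acid library 1 and, by little, in library 3, while library 2 kept HAS3 first. In controls 1 and 3 HAS3 held 70.5% and 73.9% of the summed FPKM of the 3 synthases and HAS2 held 11.3% and 1.64%. In bile acid libraries 1 to 3 HAS3 held 32.1%, 43.7% and 37.2% and HAS2 held 49.7%, 27.1% and 38.1%. HAS1 held 18.2% to 29.2% in these 5 libraries, and its ranges in the groups overlapped. The summed level was 0.464 and 0.542 FPKM in controls 1 and 3 and 1.27, 0.713 and 0.483 FPKM in bile acid libraries, so bile acid library 3 lay among the controls in its sum while HAS2 made up more of it. Control 2 had 0 counts of all 3 synthases and no share. These shares rest on 66 to 175 counts a library.

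**Figure D2:**
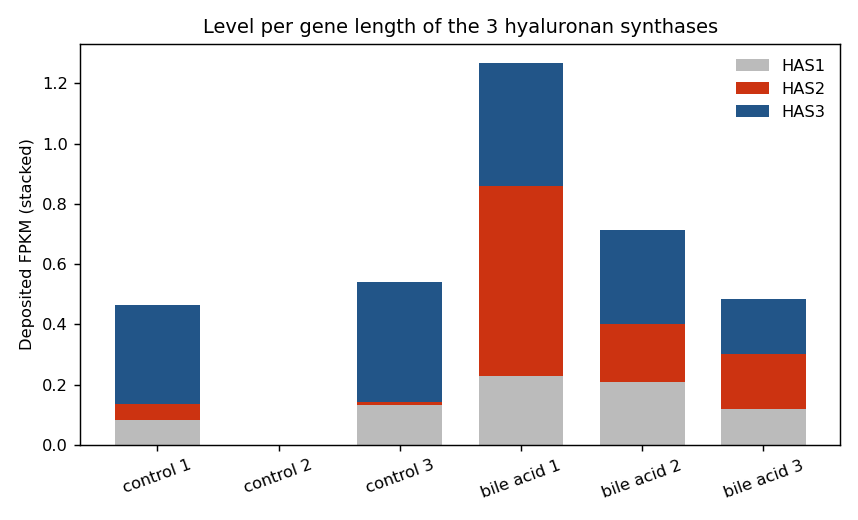
Deposited FPKM of HAS1, HAS2 and HAS3 (vertical axis, stacked) in each of the 6 libraries (horizontal axis). HAS3 makes up most of controls 1 and 3, HAS2 makes up 27.1% to 49.7% of the bile acid libraries, and control 2 has no bar because all 3 genes were at 0.

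Reads of HAS2 could in part come from its antisense neighbour HAS2-AS1, which shares 201 bp, or 4.80%, of the exonic length of HAS2, since the sources used here do not say whether reads were counted by strand. HAS2-AS1 had 15, 1 and 7 counts in controls and 6, 1 and 15 in bile acid libraries. These values overlapped and did not follow those of HAS2. HAS3 shares 365 bp with CHTF8 on the opposite strand, which had 3226 to 4854 counts in controls and 4479 to 5353 in bile acid libraries. HAS1 overlaps no other gene's exons.

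CD44 was higher in every bile acid library than in every control. The receptor (ENSG00000026508, chromosome 11, 35138870 to 35232402, plus strand) measured 37.4, 48.5 and 31.0 CPM in controls 1 to 3 and 50.5, 56.8 and 60.9 CPM in bile acid libraries 1 to 3, or 39.0 ± 8.89 against 56.1 ± 5.22 (mean ± SD, n = 3). The groups lay close, with control 2 just under bile acid library 1. Its log2 fold change was 0.53 (SE 0.22), 0.72 (SE 0.16) without control 2 and 0.31 with the trend of each library along gene length removed. Control 2 was the highest control for CD44, whereas it was the lowest for HAS1, HAS2, HAS3, CEMIP and UGDH. The table sums all CD44 transcripts, 39 in the annotation, so the standard and variant forms of the receptor are 1 value here.

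UGDH, which oxidises UDP-glucose to the UDP-glucuronic acid that the synthases use (ENSG00000109814, chromosome 4, 39498755 to 39528311, minus strand), measured 49.2, 42.4 and 52.0 CPM in controls and 66.6, 52.9 and 57.9 CPM in bile acid libraries. All bile acid libraries lay above all controls, though bile acid library 2 exceeded control 3 by little. The log2 fold change was 0.30 (SE 0.18), and 0.24 without control 2. UGDH shares 293 bp of exon with UGDH-AS1 on the opposite strand, which had 24 to 175 counts in controls and 73 to 175 in bile acid libraries.

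Of the 3 HYAL genes, which stand side by side on the minus strand of chromosome 3, HYAL2 alone kept the groups apart. HYAL2, a membrane-anchored enzyme that cuts long chains at the surface (ENSG00000068001, 50317790 to 50322906), measured 23.8, 23.7 and 23.1 CPM in controls and 26.1, 26.6 and 27.1 CPM in bile acid libraries. Its spread within each group was small, at an SD of 0.39 and 0.47 CPM, and the difference was small too, a ratio of means of 1.13 and a log2 fold change of 0.18 (SE 0.16). It shares 11.2% of its exonic length with TUSC2 on the same strand.

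HYAL1, the lysosomal hyaluronidase (ENSG00000114378, 50299889 to 50312381), had 22, 9 and 10 counts in controls and 18, 26 and 29 in bile acid libraries. Control 1 lay above bile acid library 1 in CPM, and the other values of the groups did not cross. The log2 fold change was 0.58 (SE 0.51). HYAL3 (ENSG00000186792, 50292831 to 50299468) measured 3.67, 2.69 and 2.68 CPM in controls and 4.60, 3.40 and 3.44 CPM in bile acid libraries, with control 1 above 2 of the 3 bile acid libraries and a log2 fold change of 0.34 (SE 0.30). It shares 12.2% of its exonic length with NAA80 and 2.12% with IFRD2, both on the same strand, so part of its reads cannot be told from theirs.

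CEMIP, a secreted and surface protein needed for hyaluronan breakdown outside the lysosome (ENSG00000103888, chromosome 15, 80779343 to 80951776, plus strand), measured 5.43, 0.728 and 4.30 CPM in controls and 4.99, 2.49 and 3.96 CPM in bile acid libraries. Control 2 was far below all other libraries, and bile acid library 2 was the next lowest. The log2 fold change of 0.12 (SE 0.65) turned to −0.34 (SE 0.32) without control 2 and to −0.12 without bile acid library 1.

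Over the family, 8 members passed the filter, HAS2 through its bile acid libraries alone. From its control libraries alone HAS3, with 0 counts in control 2, would not have passed it either. All 8 members had a positive log2 fold change, as did 48.8% of all genes tested. In HAS2, HYAL2, CD44 and UGDH, 4 of them, the lowest bile acid value exceeded the highest control value, which 5.29% of genes tested showed, and 0 lay below, as 4.89% did. The choice of the family used this contrast, so nothing is read from these counts. For HAS3 and CEMIP the sign rested on control 2, as given above.

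**Figure D3:**
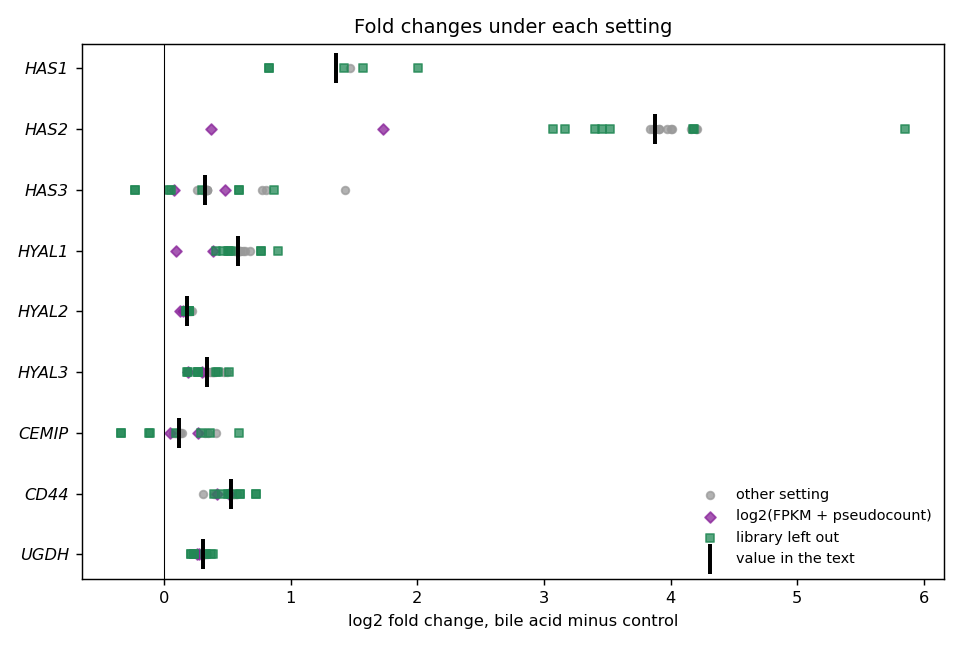
Log2 fold change of bile acid minus control (horizontal axis) for each member (vertical axis). The black bar is the value in the text, squares leave out 1 library, diamonds use log2(FPKM + pseudocount) and circles use other tools, scalings, filters or terms. HAS3 and CEMIP cross 0 when a library is left out, and HAS2 stays positive but shrinks to 0.37 on log2(FPKM + 1).

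Control 2 differed from controls 1 and 3 along gene length, and most tested members lay below the median of their length class. Over all tested genes control 2 minus the mean of the remaining controls, in log2 CPM (prior count 2), had a median of 0.58 for genes of up to 2000 bp, −0.10 from 4000 to 6000 bp and −0.44 for the next class, which starts at 6000 bp and holds CEMIP and CD44. HAS3, with 5289 bp of exon, lay at −4.86, HAS2, with 4190 bp, at −1.35, and CEMIP, with 7621 bp, at −2.61. These 3 lay well below the median of their length. For HAS2 the value compares 0 counts in control 2 with 7 and 1 in controls 1 and 3, so its size depends on the prior count. CD44, the longest at 10004 bp, lay at 0.51 and thus above the median of its class. HYAL1, HYAL2, HYAL3 and UGDH lay between −0.25 and 0.02. Among these HYAL2 alone lay above the median of its class. For HYAL1 and HYAL3, in the class of 2000 to 4000 bp, that median was 0.30. With the length trend removed, the log2 fold change of HAS2 was 3.88, that of HAS3 0.31 and that of CEMIP 0.09, close to the values above. That of CD44 fell from 0.53 to 0.31, and that of HYAL3 rose from 0.34 to 0.47.

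**Figure D4:**
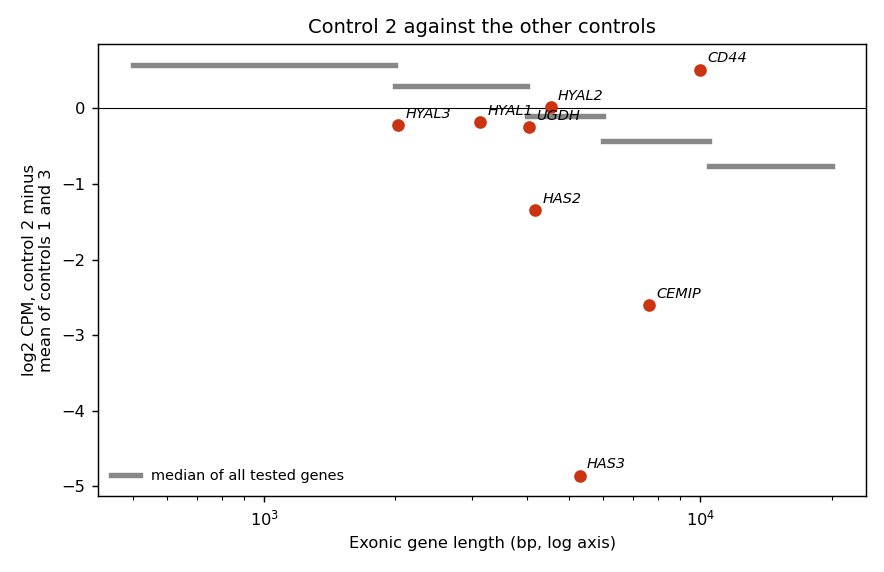
Log2 CPM of control 2 minus the mean of controls 1 and 3 (vertical axis) against exonic length in bp (log axis), with grey bars for the median of all tested genes in 5 length classes (the outer classes are drawn to finite ends) and red points for the 8 tested members. HAS3 lies at −4.86 and CEMIP at −2.61, far under the grey bars, and CD44 lies at 0.51, above them.

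Per gene length the members ran, in controls, from UGDH at 10.3 ± 1.18 FPKM through HYAL2 at 4.49 ± 0.083, CD44 at 3.37 ± 0.720 and HYAL3 at 1.29 ± 0.255 (mean ± SD, n = 3). Below these came CEMIP at 0.399 ± 0.283 FPKM, HAS3 at 0.242 ± 0.213, HYAL1 at 0.159 ± 0.0546, HAS1 at 0.0723 ± 0.0671 and HAS2 at 0.0205 ± 0.0281. The first 4 levels were each apart from the next in every library, and from CEMIP down each level overlapped with its neighbour. In bile acid libraries the order was the same except that HAS2, at 0.336 ± 0.255 FPKM, stood between CEMIP at 0.426 ± 0.141 and HAS3 at 0.2996 ± 0.114. HYAL2 at 4.99 ± 0.0995 and CD44 at 4.78 ± 0.455 FPKM then overlapped.

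The genes whose log2 CPM followed HAS2 most closely over the 6 libraries, among 11394 protein-coding genes averaging 5 CPM or more, were THBD, the thrombin receptor thrombomodulin (Pearson r = 0.985), SBNO1 (0.982), RBM15B (0.981), SLC16A10, an aromatic amino acid transporter (0.977), and SP140L (0.975). For CD44 they included CCDC71L (0.994), TMEM173, the innate immune adaptor STING (0.983), PRPS1, which makes the ribose phosphate donor of nucleotide synthesis (0.977), and TMEM97, a sterol-regulated membrane protein (0.975). These are the highest of many correlations over 6 points that share 2 groups and a library that stands apart, and are given as a description. Between HAS2 and CD44 themselves r was 0.58, and 0.82 without control 2.

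The rest of the hyaluronan pathway showed no common direction. Of 75 listed genes 58 were tested, 31 had a positive log2 fold change, and the median was 0.03, against −0.01 over all genes tested. In edgeR 0 were called, as over all genes, and 6 had an unadjusted p under 0.05, against 588 of 17743. In 6 of the 58 the groups were apart with bile acid higher and in 3 with bile acid lower, against 5.29% and 4.89% of all genes tested. Signs among these genes leaned on control 2: without it 20 of the 58 changed sign and 35 were positive, GPI (0.24), GFPT1 (−0.07), AREG (0.36), FN1 (−0.20), GUSB, HAPLN3, LAYN and ESRP2 among those that changed.

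Among 16 genes of sugar nucleotide supply 10 were positive and 6 negative, with a median log2 fold change of 0.11. By level the first were GPI (log2 fold change −0.19, SE 0.32), GFPT1 (0.10, SE 0.25) and GNPDA1 (0.02, SE 0.18). GPI feeds glycolysis and lies upstream of UDP-N-acetylglucosamine. GFPT1 is the entry enzyme of the hexosamine pathway, and GNPDA1 returns glucosamine phosphate to glycolysis. UAP1, which makes UDP-N-acetylglucosamine, the partner of the UGDH product, measured 56.4 ± 1.66 CPM in controls and 71.7 ± 11.3 CPM in bile acid libraries without overlap, and its relative UAP1L1 10.4 ± 1.65 and 8.23 ± 0.760 CPM, with the bile acid libraries below. UAP1 and UAP1L1 were named after their values were seen, as were the other genes below whose libraries did not overlap.

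In breakdown, 1 of 4 tested genes was positive. The lysosomal enzymes GUSB (log2 fold change −0.40, SE 0.32) and HEXA (−0.40, SE 0.27), which remove single sugars from chain ends, were both highest in control 2, and without it stood at 0.00 and −0.07. HYAL4 and SPAM1 had 0 counts in every library. CEMIP2, a transmembrane relative of CEMIP also named TMEM2, had 511, 165 and 498 counts in controls and 895, 600 and 910 in bile acid libraries, or 16.3 ± 6.26 against 28.5 ± 5.69 CPM. Its groups did not overlap, and the log2 fold change was 0.81, or 0.54 with control 2 left out.

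Among receptors other than CD44, 2 of 4 tested genes were positive, with HMMR, a receptor tied to mitosis (0.24, SE 0.29, and 0.01 without control 2), LAYN (−0.06, SE 0.21) and TLR2 (−0.04, SE 0.25) first by level. TLR4, an innate receptor that senses endotoxin and has been reported to respond to hyaluronan fragments, had 65, 45 and 34 counts in controls and 349, 75 and 153 in bile acid libraries. Its libraries did not overlap, bile acid library 1 stood highest, and the log2 fold change was 1.70, or 0.95 with that library left out. LYVE1, STAB1 and STAB2, receptors of lymphatic and sinusoidal endothelium, were too low to test.

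Of 17 genes for hyaluronan-binding matrix proteins 8 were tested, 3 of them positive, with a median of −0.32 that was −0.07 without control 2. By level the first were PTX3, which binds the heavy chains carried by hyaluronan (0.71, SE 0.43), and the link proteins HAPLN3 (−0.36, SE 0.30) and HAPLN2 (−1.13, SE 0.41). PTX3 measured 20.9 CPM in bile acid library 1 and 5.94 to 8.95 CPM in the other 5, with a log2 fold change of 0.07 without that library. HAPLN2 was lower in every bile acid library, at 2.02 ± 0.690 against 4.44 ± 1.72 CPM. ITIH5, of the heavy-chain family, had 32, 28 and 25 counts in controls and 14, 8 and 3 in bile acid libraries, again without overlap. From its bile acid libraries alone it would not have passed the filter on low counts. VCAN, the large matrix proteoglycan, averaged 0.0674 FPKM in controls and 0.121 FPKM in bile acid libraries, with 0 counts in control 2, and TNFAIP6, the enzyme that transfers heavy chains, was too low to test.

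Of 12 genes that link, shed or splice CD44, 9 were positive, with a median of 0.16 that was −0.01 without control 2. EZR (0.04, SE 0.23), MSN (0.87, SE 0.34) and NCSTN, a γ-secretase subunit (0.31, SE 0.32), were first by level. Without control 2 NCSTN was at 0.03 and EZR at 0.23. EZR and MSN encode ezrin and moesin, which tie CD44 to actin, and MSN measured 241, 117 and 203 CPM in controls and 376, 232 and 420 CPM in bile acid libraries, where control 1 lay above bile acid library 2. Of the splicing factors that favour CD44 variant exons, ESRP1 had a log2 fold change of −0.23 (SE 0.36) and ESRP2 0.04 (SE 0.34).

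Of 5 tested CD44 ligands 3 were positive. SRGN, the small proteoglycan serglycin (0.62, SE 0.20), measured 149 ± 26.8 CPM in controls and 230 ± 26.4 CPM in bile acid libraries without overlap. FN1 (0.14, SE 0.41) overlapped between groups. MIF (0.97, SE 0.96) did not, with 0 counts in control 2 and 54 and 35 in controls 1 and 3, against 55 to 69 in bile acid libraries, and its log2 fold change was 0.42 without control 2. Of 9 tested EGF and FGF family genes 3 were positive, with ERBB2 (−0.09, SE 0.17), EGFR (0.66, SE 0.55) and AREG (−0.06, SE 0.55) first by level. EGFR was at 0.27 without control 2 and at 0.34 without bile acid library 1. EREG, an EGF receptor ligand, had 10, 0 and 6 counts in controls and 76, 14 and 14 in bile acid libraries, without overlap in CPM and with the same high bile acid library 1 as HAS2. From their control libraries alone neither EREG nor MIF would have passed the filter on low counts. The log2 fold change of EREG was 2.49, or 1.21 without bile acid library 1.

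**Figure D5:**
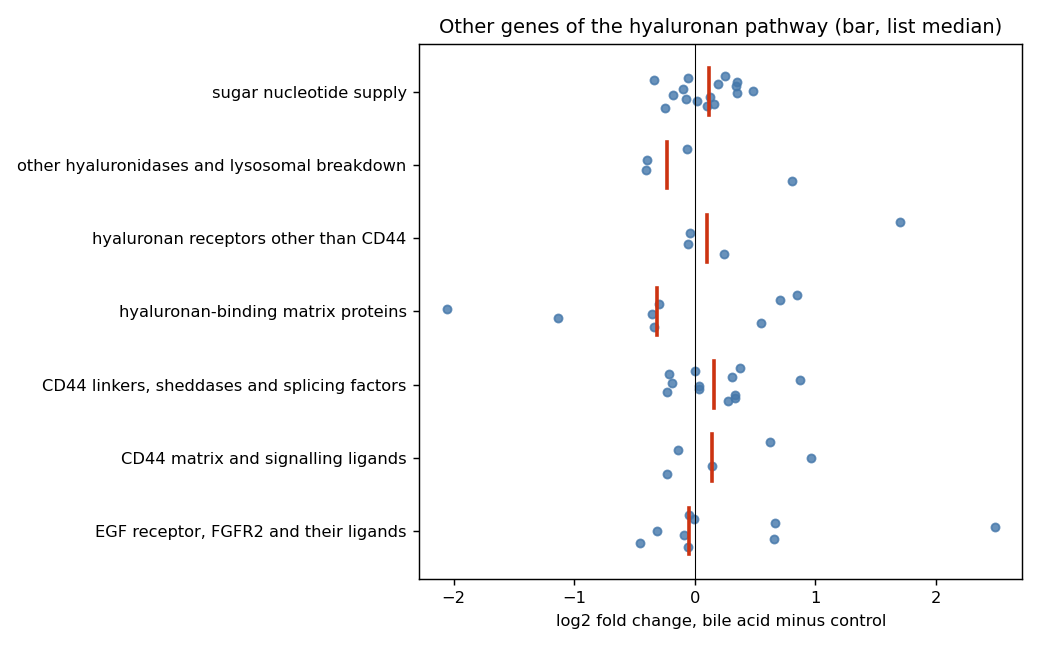
Log2 fold change of bile acid minus control (horizontal axis) for the 58 tested genes of 7 pathway lists (vertical axis), with a red bar at each list median. The medians lie between −0.32 and 0.16, and EREG at 2.49 and ITIH5 at −2.06 are the outermost points.

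In the authors' deposited table of Gene Ontology results 3 terms name hyaluronan. The normalized enrichment score was 1.99 for hyaluronan biosynthetic process (14 genes, adjusted p = 0.00878), with HAS2 and HAS1 among its 7 leading genes. It was 1.79 for hyaluronan catabolic process (13 genes, adjusted p = 0.0255), with CD44, HYAL3, HYAL2 and HYAL1 among 8 leading genes, and 1.69 for hyaluronan metabolic process (31 genes, adjusted p = 0.0311). These terms hold the members and come from the same contrast, so they are no separate evidence.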

How the data were processed

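Counts, FPKM, normalized counts and a comparison table were deposited by the authors for 6 libraries sequenced with paired-end 150 bp reads. Per the submitters' processing notes, HISAT2 2.0.5, featureCounts, DESeq2 and GRCh38 were used, without their roles. Coordinates and exonic lengths equal those of GENCODE release 29 for 100% of genes, and no source used here says whether counting used strand. The deposited normalized counts, a signal, equal whole reads over 1 factor per library (100% of values whole within 0.001), and on these reads edgeR called 0 and DESeq2 20 genes. The deposited comparison gives, per the file headers, log2 fold changes, a test score, p-values and mean signal, and the gene set table other values such as term size, with scores and p-values. Of the value columns, 2 were not used.

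Deposited counts were fitted in R 4.3.3 with edgeR 4.0.16 (quasi-likelihood), TMM factors, filterByExpr (minimum count 10) and Benjamini-Hochberg adjusted p under 0.05 over all genes, 3 against 3 libraries without covariates. The SE is the fold change over the root of the F statistic. Scripts were tested on simulated data. Alternatives were DESeq2 1.42.0, limma-voom (limma 3.58.1), scaling by RLE, upper quartile or library size, a filter of 1 CPM in 3 libraries or none, a replicate block, removal of the length trend (lowess span 0.3) with and without the block, limma on log2(FPKM + 1) and log2(FPKM + 0.1), and each library left out. Recovered reads and DESeq2 without control 2 or bile acid library 1 were added after seeing the data.

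Named genes were the 9 members, the 3 of each pathway list with the highest mean FPKM, the 5 genes most like HAS2 and CD44, and genes overlapping a member. Of the genes so named, 2 are not reported here. The members and lists were chosen with earlier results of these data known. All 121 listed symbols were found.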

Additional observations from a re-analysis of the deposited data

How the results depend on the processing

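The edgeR count of 0 genes higher became 19 with DESeq2, 1 with edgeR without control 2 (leaving out 1 library gave 0 to 1), 19 with DESeq2 on the recovered reads with or without the filter, 143 with DESeq2 without control 2 and 1 with DESeq2 without bile acid library 1. The count of 0 lower became 1 with DESeq2 on the recovered reads and 15 with DESeq2 without control 2, and leaving out 1 library gave 0 in edgeR. The other alternatives gave 0 in both directions. With the replicate block edgeR also called 0 genes higher and 0 lower, with 1109 at an unadjusted p under 0.05 against 588. Libraries of the same number deviated from their group means with r = 0.307, 0.382 and 0.0979 for numbers 1 to 3 across genes. Control 1 correlated less with bile acid libraries 2 (−0.413) and 3 (0.144), and control 2 less with libraries 1 (−0.282) and 3 (−0.137). Control 3 correlated better with bile acid library 1 (0.189). The labels name no pairing, so the main fit has no block, and whether the numbers pair the libraries was not tested. The block put the log2 fold change of HAS2 at 4.20 (SE 0.82), against 3.87 (SE 1.02) without it. HAS2 was positive under all 22 alternatives that fitted it, from 0.37 on log2(FPKM + 1), where the pseudocount exceeds its level, to 5.85 without control 1, and was called under 2. HAS3 was negative under 2 of 23 alternatives, both without control 2, and reached 1.43 with limma-voom, and CEMIP was negative under 4 of 23, without control 2 or bile acid library 1. HAS1 had 6 alternatives, since it mostly failed the filter, and HAS2 and HYAL1 had no value with 1 CPM in 3 libraries. CD44 ranged from 0.31 to 0.72 and HYAL1, HYAL2, HYAL3 and UGDH stayed positive. Few counts limit HAS1, HAS2 and HYAL1.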
